A study of Homo sapiens with 9 samples.

Results

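The integrated stress response regulators described here are 10 genes, taken by name from a table of 35876 gene symbols: ATF4, DDIT3, TRIB3, ASNS, CHAC1, ATF3, SESN2, DDIT4, PPP1R15A and CEBPB. All 10 were in the table. All 10 are protein-coding genes, placed here by the GENCODE 29 annotation of GRCh38. ATF4 lies at chr22:39519695-39522685 (plus strand), DDIT3 at chr12:57516588-57521737 (minus strand), TRIB3 at chr20:362835-397559 (plus strand), ASNS at chr7:97852118-97872542 (minus strand) and CHAC1 at chr15:40952962-40956519 (plus strand). ATF3 lies at chr1:212565334-212620777 (plus strand), SESN2 at chr1:28259527-28282491 (plus strand), DDIT4 at chr10:72273920-72276036 (plus strand), PPP1R15A at chr19:48872392-48876057 (plus strand) and CEBPB at chr20:50190734-50192689 (plus strand), as a single exon. The filter on low counts kept 8 of them among the 11905 genes tested, and CHAC1 and CEBPB were too low to pass it. Since a gene can pass that filter through the group where it is high, counts and medians over the 8 are descriptions. The RNA came from 9 libraries of HEK293, an established line of human embryonic kidney cells, in 3 groups of 3 replicates. The Cas9 group carried the RNA-guided nuclease Cas9, the Cre group Cas9 with the Cre recombinase, and the Flpo group Cas9 with the Flpo recombinase. Every group name, that of the Cas9 group included, begins with an unexplained CC, and no group lacks Cas9. The labels name no targeted gene, no promoter and no clone, and they do not say whether replicates were separate cultures, so p-values measure the spread between these libraries, which may be technical.

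The integrated stress response starts when one of several kinases (among them PERK, GCN2, PKR and HRI) phosphorylates the translation initiation factor eIF2. Bulk protein synthesis then slows, while a few messages with upstream open reading frames are translated more, ATF4 chief among them. ATF4 is a bZIP transcription factor that raises genes for amino acid supply and, with CHOP (the product of DDIT3), genes of feedback and cell death. PPP1R15A, also called GADD34, closes the loop by bringing a phosphatase to eIF2. Messenger RNA levels, as measured here, do not show the phosphorylation of eIF2 or the amount of ATF4 protein.

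ATF4 and its partners act through short promoter elements, and the sites found in the members' promoter windows are printed below to show where a factor of this family could be read. RefSeq promoter windows (GRCh38.p14) run from 250 bases before to 50 bases after a start site, and all 10 members matched, with 17 windows among them. The motif TGATGNAA, core of the C/EBP-ATF response element, was searched on both strands and occurred in windows of 3 members, ASNS, CHAC1 and ATF3. It occurred in 3.62% of all 35116 windows. TGACGTCA, the cAMP response element, reads the same on both strands and occurred in PPP1R15A alone among the members and in 1.85% of all windows. The longer ER stress response element, searched on both strands, occurred in no member and in 0.0769% of all windows. Each line gives 30 bases 5′ to 3′ on the gene's strand, with the match in capitals.
ASNS, chr7:97872458-97872487, minus strand, match starting 68 bases before the start site: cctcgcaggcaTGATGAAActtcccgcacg
CHAC1, chr15:40953251-40953280, plus strand, match on the opposite strand, 209 bases before: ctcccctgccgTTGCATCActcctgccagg
ATF3, chr1:212565205-212565234, plus strand, 191 bases before a RefSeq start site: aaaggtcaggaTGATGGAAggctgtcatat
PPP1R15A, chr19:48872352-48872381, plus strand, 58 bases before: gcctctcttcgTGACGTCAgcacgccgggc
A match is a stretch of letters and not a measured binding site. No binding was measured in these samples.

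The libraries differed in depth and make-up, and the Flpo group was not uniform. Totals ran from 993902 to 3761779 estimated counts in the Cas9 group, from 213907 to 1701730 in the Cre group and from 4989524 to 8833491 in the Flpo group, a range of 41.3-fold. A floor of 3 counts was worth 11.2 CPM in Cre replicate 2, the smallest library, and at most 2.57 CPM in the others. CPM is the usual depth-scaled count, here also scaled by TMM, edgeR's factor for unequal composition. Of the 10 HEK293 markers, 9 had counts with Cre and 9 with Flpo, at summed levels of 525 to 1094 and 1607 to 5387 CPM, against 633 to 1459 CPM in the Cas9 group. PAX2 had 1 count in all 9 libraries together. A single symbol, AC010970.1, took 9.99% to 21.9% of the counts in the 3 Cas9 libraries and 17.2% in Cre replicate 1, but 0.591% to 3.35% in the other 5. ACTB, for cytoplasmic actin, was at 56576 and 47327 CPM in Flpo replicates 1 and 3 against 4078 in Flpo replicate 2 and 629 to 4173 in the other groups. The 10 liver cell markers, examined because the labels' protocol mentions livers, summed to 9.10 to 110 CPM, mostly TF, with ALB at 0 in 8 of 9 libraries. Fibroblast markers summed to 550 to 6484 CPM in the Cre group, 264 to 893 in the Cas9 group and 253 to 327 in the Flpo group. The blood and endothelial list stayed between 0.690 and 19.9 CPM, with CD3E at 0 throughout. Within these liver and blood lists, Flpo replicate 2 held the only counts of ALB, TTR, SERPINA1, FGA, CD14 and HBB, 1 to 5 each. It also had the highest counts of TF (399), VWF (21), HNF4A (8) and PTPRC (4). Between Cre and Flpo, the HEK293 list went both ways, with 3 of its 6 tested genes below 0 and 3 above. KRT8 and KRT18 were lower (edgeR adjusted p 0.0199 and 0.0167). NEFL was at 26.1 to 54.1 CPM with Cre against 8.43 to 16.1 with Flpo (1.62, edgeR adjusted p 0.0501). Of the fibroblast list, COL1A1, COL1A2 and COL3A1 were higher (edgeR adjusted p 0.0243, 0.0287 and 0.0210). DCN and LUM of that list overlapped, at 5.36 to 44.8 and 1.72 to 14.9 CPM with Cre against 1.28 to 10.7 and 2.04 to 4.95 with Flpo. PDGFRA went the other way, at 0 to 0.487 CPM with Cre, on at most 1 count, against 0.518 to 5.11 with Flpo. The part of these differences in the results on stress genes was not tested.

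ATF4, the factor at the centre of the response, was lower with Cre than with Flpo. Its counts were 1504, 620 and 1046 in Flpo replicates 1, 2 and 3, or 259, 158 and 167 CPM. In the Cre replicates they were 84, 3 and 5, or 40.9, 11.2 and 4.29 CPM. All 3 Cre libraries lay below all 3 Flpo libraries, and the 3 counts of Cre replicate 2 are its floor, 11.2 CPM. The Cas9 libraries spread widely, with 25, 202 and 811 counts, or 20.8, 116 and 232 CPM. Cas9 replicate 1 was therefore within the Cre range, and Cas9 replicates 2 and 3 were above it. The Flpo mean was 195 ± 56.0 CPM, the Cas9 mean 123 ± 106 and the Cre mean 18.8 ± 19.5 (SD, n = 3 per mean). Between Cre and Flpo, ATF4 fell by 3.27 on the log2 scale with a standard error of 0.89 (9.64-fold), with an adjusted p of 0.0268 in edgeR's quasi-likelihood test. That comparison placed 20.5% of all tested genes past the threshold, 14.3% of all tested genes as lower in Cre and 6.17% as higher. The median gene stood at −0.34, so ATF4 was −2.93 relative to it, and 6.19% of genes had a lower value. Against Cas9, ATF4 was at −2.61 with Cre (standard error 0.87, edgeR adjusted p 0.619) and at 0.66 with Flpo (standard error 0.79, edgeR adjusted p 0.662). The call between Cre and Flpo was lost when Cas9 replicate 2, Cre replicate 2, Cre replicate 3, Flpo replicate 1 or Flpo replicate 3 was left out, with edgeR adjusted p of 0.0508, 0.0812, 0.113, 0.101 and 0.0562. Of all genes, 1386, 0, 0, 0 and 405 passed in those fits, against 2440 as reported. The value of ATF4 ranged from −4.91 without Cre replicate 1 to −2.77 without Cre replicate 3. With the log2 library total as a covariate it was −0.43 (adjusted p 0.979 in edgeR), and the totals of the Cre and Flpo groups did not overlap, so depth and group cannot be told apart there. In bulk RNA, fewer cells that express a gene and less RNA per cell cannot be told apart.

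**Figure D1:**
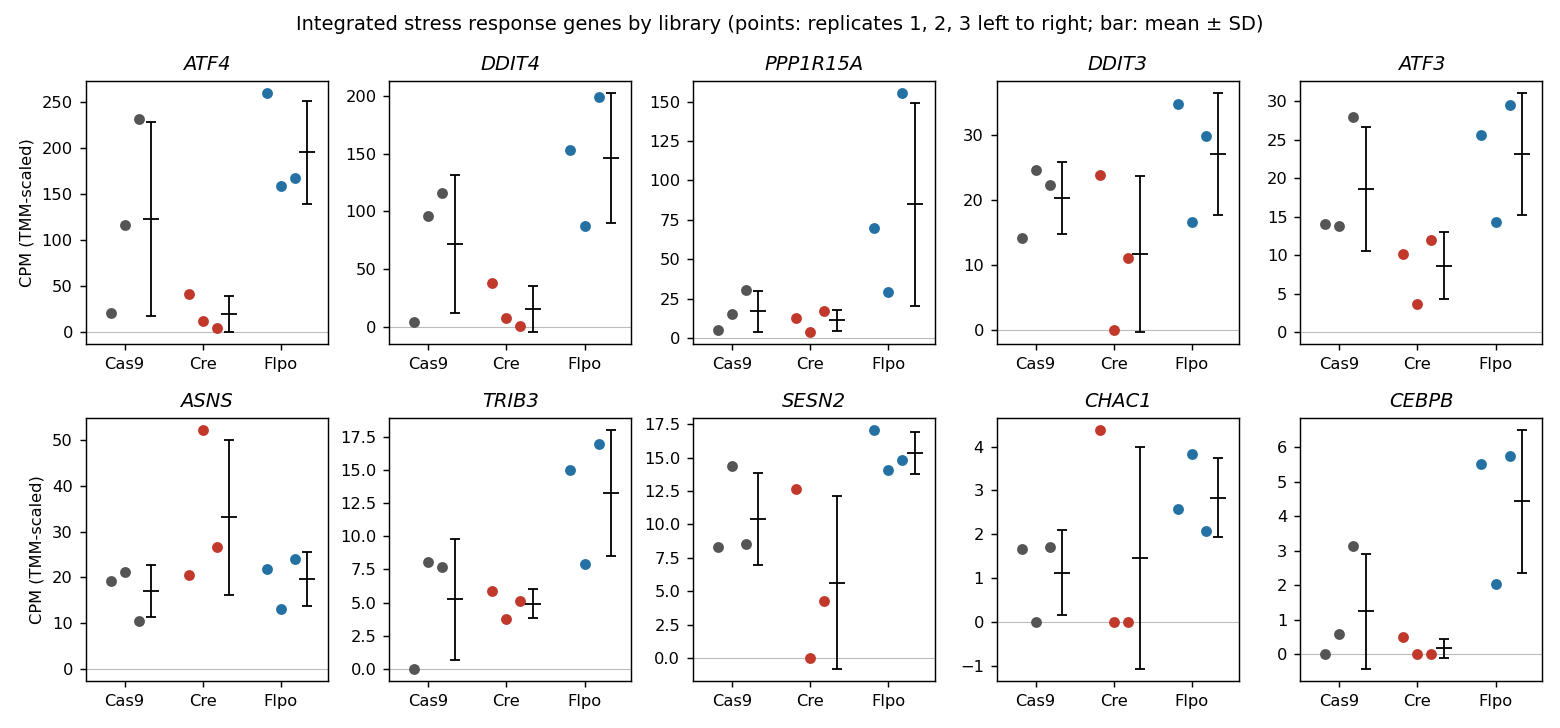
Level of each of the 10 genes in TMM-scaled CPM (linear axes, one scale per gene), with replicates 1, 2 and 3 of the Cas9, Cre and Flpo groups as points from left to right and the mean ± SD as a bar. ATF4 ran from 158 to 259 in the Flpo libraries and from 4.29 to 40.9 in the Cre libraries, while ASNS was highest in Cre replicate 2.

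PPP1R15A, the eIF2 phosphatase subunit that ends the response, gave the other call among the members. The Flpo libraries held 404, 114 and 974 counts, or 69.7, 29.1 and 155 CPM. The Cre libraries held 26, 1 and 20 counts, or 12.7, 3.73 and 17.2 CPM, and the Cas9 libraries 6, 27 and 108, or 4.99, 15.5 and 30.8 CPM. Flpo replicate 3 stood well above the other Flpo libraries, and Flpo replicate 2 was slightly below Cas9 replicate 3. No Cre library reached any Flpo library, although 11.2 CPM is the floor of Cre replicate 2. PPP1R15A fell by 2.78 between Cre and Flpo (standard error 0.79, 6.85-fold, adjusted p 0.0303 in edgeR), or −2.44 relative to the median gene. Leaving out 1 library ended this call in 6 of 9 fits, and those libraries were Cas9 replicate 2 and Cre replicates 1, 2 and 3 with Flpo replicates 1 and 3, at edgeR adjusted p of 0.0531, 0.0519, 0.0811, 0.102, 0.0864 and 0.124. Of all genes, 1386, 3131, 0, 0, 0 and 405 passed in those fits, against 2440 as reported. Without Flpo replicate 3 the value of PPP1R15A itself was −2.03. Without TMM the adjusted p in edgeR was 0.0657. With the library total as a covariate the value turned to 0.44 (edgeR adjusted p 0.979). After thinning to the smallest library PPP1R15A could not be tested. Between Flpo and Cas9, PPP1R15A had the largest difference of the 8 tested members, at 2.27 (standard error 0.74, edgeR adjusted p 0.126). It passed there in the DESeq2 test (adjusted p 0.0463), without a filter on low counts (0.0202 in edgeR) and without Flpo replicate 2 (0.0173 in edgeR). Its value there was 3.01 without Cas9 replicate 3 and 1.51 without Flpo replicate 3. No other member passed in that comparison under any setting.

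DDIT4 encodes REDD1, an inhibitor of the growth kinase complex mTORC1. Counts were 887, 341 and 1246 in the Flpo libraries, or 153, 87.2 and 199 CPM. They were 79, 2 and 1 in the Cre libraries, or 38.5, 7.47 and 0.858 CPM, and 5, 168 and 406 in the Cas9 libraries, or 4.15, 96.4 and 116 CPM. Again Cas9 replicate 1 sat with the Cre libraries while Cas9 replicates 2 and 3 lay within the Flpo range. Between Cre and Flpo the groups did not overlap, with a log2 fold change of −3.08 (standard error 1.09) whose adjusted p in edgeR, 0.0591, missed the threshold. It passed without Cas9 replicate 1, Cre replicate 1 or Flpo replicate 2, at edgeR adjusted p of 0.0237, 0.0261 and 0.0216, and its value ranged from −5.82 without Cre replicate 1 to −2.49 without Cre replicate 3. DDIT4 also passed after thinning every library to 213791 counts (edgeR adjusted p 0.0223), with only the Cre and Flpo libraries in the fit (0.0499), without a filter on low counts (0.000235) and in DESeq2 (0.0161). With the library total as a covariate it was at 0.47 (edgeR adjusted p 0.984). Against Cas9 the values were −2.07 for Cre and 1.01 for Flpo, with edgeR adjusted p of 0.619 and 0.580. The 847 exon bases that DDIT4 shares with DDIT4-AS1 on the opposite strand make its counts uncertain, because the use of strand is not given in the sources used here.

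**Figure D2:**
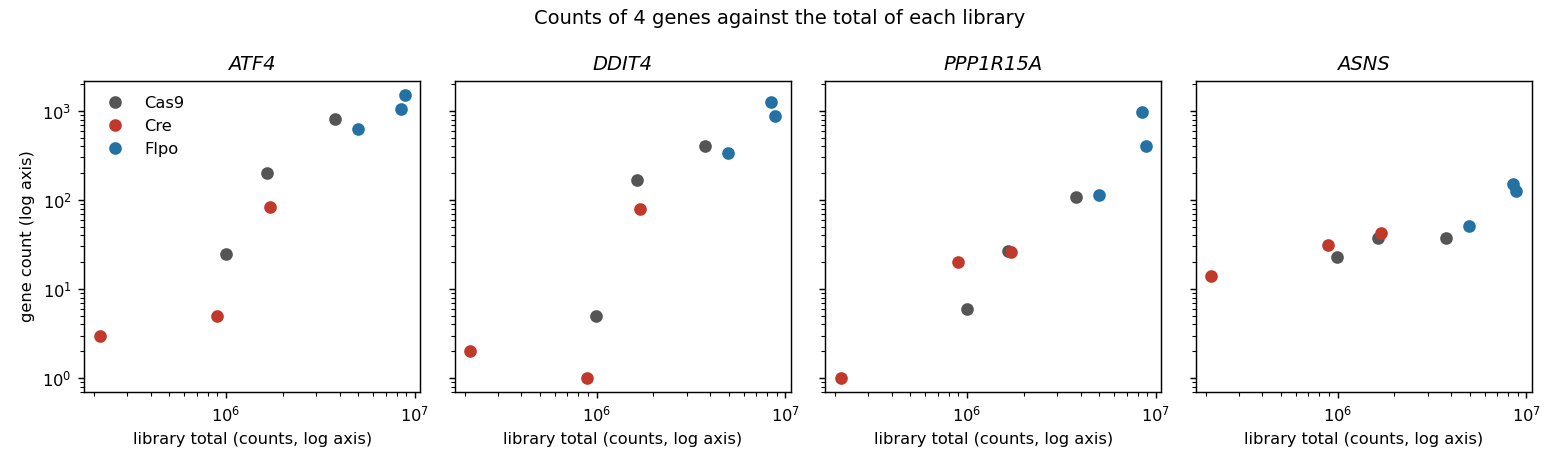
Counts of ATF4, DDIT4, PPP1R15A and ASNS against the total estimated count of each of the 9 libraries (both axes logarithmic), coloured by group. ATF4 went from 3 counts to 1504 across the libraries, whereas ASNS stayed between 14 and 42 counts in all 6 Cas9 and Cre libraries.

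Of the bZIP factors, ATF3 and DDIT3 did not pass in any comparison, and CEBPB entered the test only under looser filters or with only the Flpo and Cas9 libraries in the fit. ATF3, an early stress-induced repressor and activator, had 25.7, 14.3 and 29.5 CPM in the Flpo libraries and 10.2, 3.73 and 12.01 CPM in the Cre libraries. The Cas9 libraries had 14.1, 13.8 and 28.0 CPM. With TMM every Cre library was thus below every library of both other groups, but Cre replicate 2 rests on 1 count. Without TMM the groups overlapped, with Cre replicate 3 at 15.7 CPM, Cas9 replicate 2 at 14.6 and Flpo replicate 2 at 11.2. Non-overlap with the Cre group lower occurred for 27.9% of tested genes against Flpo and for 6.37% against Cas9. ATF3 was at −1.28 against Flpo (standard error 0.60, edgeR adjusted p 0.130) and at −0.98 against Cas9 (standard error 0.61, edgeR adjusted p 0.619).

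DDIT3, which encodes CHOP, was measured at 34.7, 16.6 and 29.9 CPM in the Flpo libraries and 14.1, 24.7 and 22.3 CPM in the Cas9 libraries. Its Cre values were 23.9, 0 and 11.2 CPM, the 0 being no count in a library whose floor is 11.2 CPM. The groups overlapped in all 3 comparisons, and the log2 fold change between Cre and Flpo was −0.99 with a standard error of 0.71 (edgeR adjusted p 0.299), or −1.86 without Cre replicate 1. Exons of DDIT3 share 355 bases with MARS and 58 with MBD6 on the opposite strand, so its counts are uncertain. MARS itself was lower with Cre than with Flpo.

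CEBPB, which encodes a C/EBP factor that pairs with ATF4, was close to the detection floor. It had 32, 8 and 36 counts in the Flpo libraries, 0, 1 and 11 in the Cas9 libraries and 1, 0 and 0 in the Cre libraries. The Flpo libraries were at 5.52, 2.04 and 5.75 CPM, and the floors in the Cre libraries were 1.46, 11.2 and 2.57 CPM. The level of Flpo replicate 2 lies under the floors of Cre replicates 2 and 3, so a like level was not detectable there. With at least 10 counts in 3 libraries as the filter, CEBPB was at −3.75 between Cre and Flpo (edgeR adjusted p 0.0603), and without a filter at −3.87 (edgeR adjusted p 0.0801), the lowest value of any member under those filters. Between Flpo and Cas9 it was at 1.49 and 1.60 under the same filters (edgeR adjusted p 0.363 and 0.556), and at 1.52 (0.365) with only those groups in the fit. CEBPB also shares 231 exon bases with CEBPB-AS1 on the opposite strand.

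Of the targets that act in feedback and metabolism, TRIB3, a pseudokinase that binds ATF4 and the kinase AKT, had 15.01, 7.92 and 16.9 CPM in the Flpo libraries. The Cre libraries had 5.85, 3.73 and 5.15 CPM and the Cas9 libraries 0, 8.03 and 7.71 CPM. With TMM all Cre libraries were below all Flpo libraries, on 12, 1 and 6 counts. The level of Flpo replicate 2 lies under the 11.2 CPM floor of Cre replicate 2. Without TMM the Cre and Flpo libraries overlapped, with Cre replicates 1 and 3 at 7.05 and 6.73 CPM and Flpo replicate 2 at 6.21. The difference was −1.35 with a standard error of 0.88 (edgeR adjusted p 0.259), and that between Flpo and Cas9 was 1.27 with a standard error of 0.81 (edgeR adjusted p 0.400).

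SESN2, a leucine-binding inhibitor of mTORC1, varied little among the Flpo libraries, at 17.1, 14.1 and 14.8 CPM. In the Cas9 libraries it was at 8.31, 14.3 and 8.57 CPM, and in the Cre libraries at 12.7, 0 and 4.29 CPM, the 0 again in Cre replicate 2. The Cre libraries lay below the Flpo libraries, and the difference was −1.12 (standard error 0.71, edgeR adjusted p 0.248). It ranged from −2.30 without Cre replicate 1 to −0.79 without Cre replicate 2.

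CHAC1, an enzyme that degrades glutathione and a known target of ATF4, was barely detected. It had 15, 15 and 13 counts in the Flpo libraries, 2, 0 and 6 in the Cas9 libraries and 9, 0 and 0 in the Cre libraries. Cre replicate 1, at 4.39 CPM, was the highest library of all, above the Flpo range of 2.08 to 3.83 CPM. With TMM the Flpo libraries lay above all Cas9 libraries, whose floors of 0.857 to 2.49 CPM cover part of that gap. Without TMM these groups overlapped, with Cas9 replicate 1 at 2.01 CPM and Flpo replicates 1 and 3 at 1.70 and 1.54. Under the same looser filters CHAC1 was at 1.20 and 1.27 between Flpo and Cas9 (edgeR adjusted p 0.527 and 0.665).

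ASNS, asparagine synthetase and a classical ATF4 target, had positive values in all 3 comparisons, none of which passed and of which that between Flpo and Cas9 (0.22) turned to −0.36 without TMM. The Cre libraries had 20.5, 52.3 and 26.6 CPM, the Cas9 libraries 19.1, 21.2 and 10.6, and the Flpo libraries 21.7, 13.0 and 24.1. The highest value belongs to Cre replicate 2, on 14 counts. Exons of ASNS share 1985 bases with AC079781.5 on the same strand, a gene that is not among the 35876 symbols, so ASNS counts are uncertain. ASNS was at 0.68 between Cre and Flpo (standard error 0.56, edgeR adjusted p 0.374) and at 0.90 between Cre and Cas9 (standard error 0.58, edgeR adjusted p 0.619). In none of the 3 comparisons were the groups apart. Without Cre replicate 2 these values were 0.28 and 0.48. With the library total as a covariate the value against Flpo turned to −0.69. Counts of ASNS ran only from 14 to 42 over the Cas9 and Cre libraries, whose totals ran from 213907 to 3761779. Over all 9 libraries, counts of the fibroblast collagens ran from 132 to 501 for COL1A1, from 209 to 1052 for COL1A2 and from 112 to 319 for COL3A1.

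**Figure D3:**
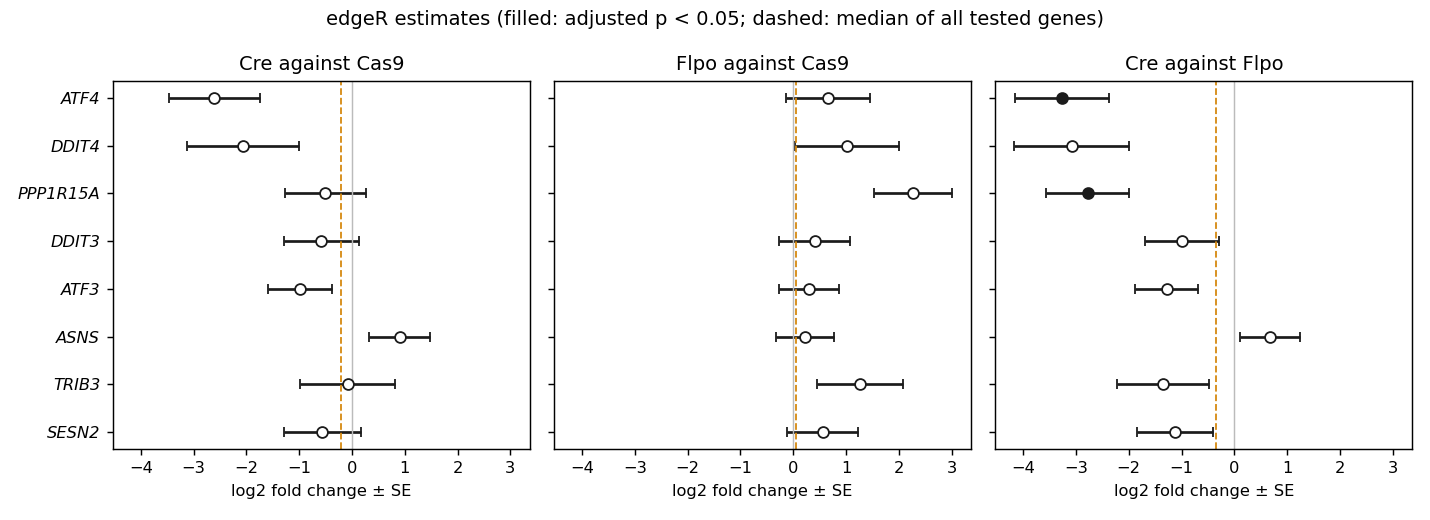
Log2 fold changes from edgeR with standard errors as bars for the 8 tested genes, in the comparisons of Cre with Cas9, Flpo with Cas9 and Cre with Flpo. Filled points passed an adjusted p of 0.05, and the dashed line is the median of all tested genes, at −0.22, 0.05 and −0.34. ATF4 and PPP1R15A are filled in the comparison of Cre with Flpo, and ASNS lies to the right of 0 in all 3, though without TMM it was at −0.36 between Flpo and Cas9.

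Per kilobase of merged exon (GENCODE 29 gene models), ATF4 and DDIT4 led the members in the Flpo group, at 77.6 ± 22.3 and 71.1 ± 27.3 CPM per kilobase (SD, n = 3 each). PPP1R15A came next at 27.4 ± 20.9 and DDIT3 at 20.7 ± 7.16. The first pair did not differ beyond their spread, nor did the second pair. ATF3, SESN2, ASNS and TRIB3 were at 5.74 ± 1.96, 4.44 ± 0.454, 4.41 ± 1.31 and 3.87 ± 1.38 CPM per kilobase, within each other's spread, and CEBPB and CHAC1 were at 2.27 ± 1.06 and 1.38 ± 0.439. In the Cas9 group ATF4 and DDIT4 led again, at 48.8 ± 42.0 and 35.1 ± 29.01, with DDIT3 next at 15.6 ± 4.23. In the Cre group DDIT3, DDIT4, ATF4 and ASNS stood at 8.93 ± 9.14, 7.58 ± 9.76, 7.48 ± 7.74 and 7.43 ± 3.79, within each other's spread.

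Across the members, 8 of 10 had the order Flpo above Cas9 above Cre in their TMM-scaled group means, with CHAC1 and ASNS as the exceptions. How many of all genes had that order was not counted. TRIB3 was nearly level between Cas9 and Cre (5.25 and 4.91 CPM), and CEBPB rested there on 12 counts and 1 count. Without TMM, ATF3 and DDIT3 turned between Flpo and Cas9, and TRIB3 between Cre and Cas9 (0.22). No member passed between Cre and Cas9 in edgeR, where 0% of all genes did. Of the 8 tested members 7 were below 0 there, against 58.4% of genes. At an unadjusted p under 0.05, 1 tested member of 8 (ATF4) stood against 7.38% of all genes, and DESeq2 called 4 genes in all. Between Flpo and Cas9 no member passed in edgeR, where 0.227% of all genes did. At an unadjusted p under 0.05, 1 of 8 members (PPP1R15A) stood against 20% of genes. No tested member had groups apart, against 25% of genes. All 8 tested members were above 0 there, against 51.7% of genes, but without TMM 5 of 8 were, and ATF3, DDIT3 and ASNS turned to −0.21, −0.14 and −0.36. Dropping TMM moved the median gene from 0.05 to −0.48 in that comparison and from −0.34 to 0.44 between Cre and Flpo. It also moved the share of Cre and Flpo calls that were higher in Cre from 30.1% to 70.8%.
Between Cre and Flpo, 2 of 8 tested members passed in edgeR, both lower, against 20.5% of all genes. That share is near the background. Non-overlapping libraries with Cre lower occurred in 6 of 8 tested members, against 27.9% of genes, both with TMM. Without TMM, the Cre and Flpo libraries overlapped for SESN2, ATF3 and TRIB3, and the share of all genes was not counted. The median member was at −1.32 and the median gene at −0.34. With or without TMM, 7 of 8 members were below 0, against 57.3% of genes with TMM. The 3 comparisons share libraries, so their values are not independent of each other.

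**Figure D4:**
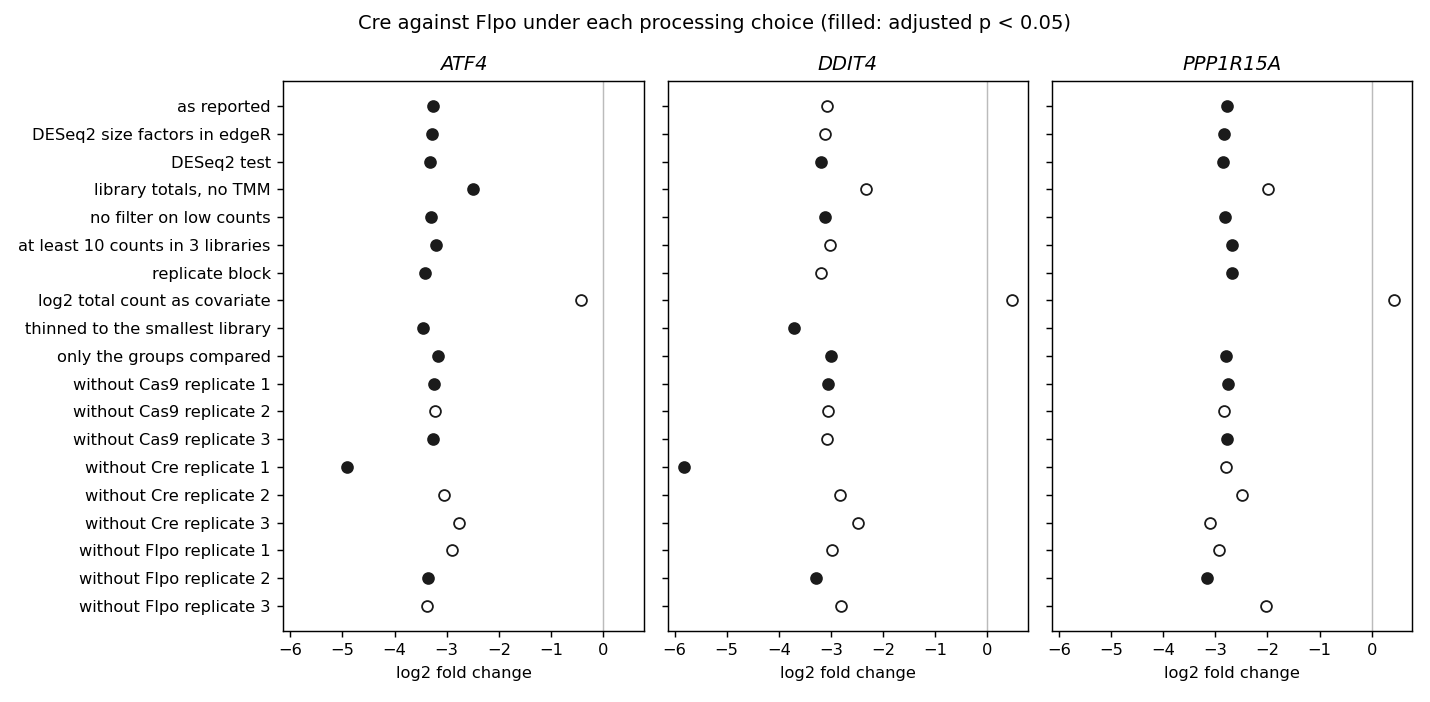
Log2 fold change of ATF4, DDIT4 and PPP1R15A between Cre and Flpo as reported and under each other processing choice, with filled points past an adjusted p of 0.05. The 3 genes stay below 0 except DDIT4 and PPP1R15A with the library total as covariate, at 0.47 and 0.44, and DDIT4 is lowest without Cre replicate 1, at −5.82. PPP1R15A has no point for thinned libraries, where it could not be tested.

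Counts in the lists that follow are read against all tested genes between Cre and Flpo, of which 14.3% were lower, 6.17% higher and 20.5% called either way. Counts given without TMM have another background, of 840 lower and 2039 higher among 11905 tested genes. Of 8 genes for eIF2 kinases and their co-activators, 6 could be tested and 1 (16.7%) was lower with Cre than with Flpo, near the 14.3% of all genes. DELE1, which carries a mitochondrial stress signal to the kinase HRI, had 0.812 ± 1.41 CPM with Cre and 11.99 ± 3.61 with Flpo (SD, n = 3 per group), a difference of −3.22 (standard error 0.99, edgeR adjusted p 0.0392). The list's median was −0.63, and 0.16 without TMM, where none was lower and 1 higher. EIF2AK3, which encodes PERK, and OMA1, a mitochondrial protease that cleaves DELE1, were too low to test.
Among 16 genes for eIF2, its exchange factor eIF2B and the phosphatases, 6 (37.5%) were lower with Cre than with Flpo, against 14.3% of all genes, and none higher, with a median of −1.29 (−0.50 without TMM, where 3 were lower and 1 higher). EIF2S3, the gamma subunit of eIF2, was at 62.7 ± 26.0 CPM in Cre, 212 ± 208 in Cas9 and 1567 ± 679 in Flpo, and fell by 4.67 between Cre and Flpo (standard error 0.91, adjusted p 0.0167 in edgeR). PPP1CB and PPP1CA, catalytic subunits of the phosphatase that PPP1R15A recruits, fell by 4.21 and 2.87 (adjusted p 0.0172 and 0.0185 in edgeR).

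Other transcription factors split. Of 14 listed, 12 were tested, with 2 lower and 1 higher in Cre than in Flpo, or 25% called against 20.5% of all genes (median −0.44, and 0.35 without TMM, where 1 was lower and 2 higher). XBP1, the factor of the IRE1 branch of the unfolded protein response, was at 10.4 ± 4.14 CPM in Cre, 10.5 ± 4.53 in Cas9 and 71.2 ± 43.6 in Flpo, and fell by 2.89 between Cre and Flpo (edgeR adjusted p 0.0202). MAFG, a small bZIP partner, fell by 3.83 (edgeR adjusted p 0.0438). JDP2, a bZIP repressor of the AP-1 family, was higher in Cre by 3.22 (edgeR adjusted p 0.0189), at 160.1 ± 63.8 CPM against 17.1 ± 14.3 CPM in Flpo.

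Genes that ATF4 is known to raise for amino acid supply were listed in 3 groups. Of 12 genes of serine, proline and one-carbon synthesis, 10 were tested and 3 (30%) were lower in Cre than in Flpo, against 14.3% of all genes, with a median of −1.19 (−0.42 without TMM, where 1 was lower and 1 higher). PSAT1 in serine synthesis was at 5.58 ± 4.95 CPM in Cre, 7.86 ± 5.32 in Cas9 and 67.6 ± 45.7 in Flpo. SHMT2 and MTHFD2, mitochondrial one-carbon enzymes, fell by 2.53 and 1.70 between Cre and Flpo (adjusted p 0.0282 and 0.0335 in edgeR).
Of 10 amino acid transporters, 9 were tested and 5 (55.6%) were lower in Cre, against 14.3% of all genes, with a median of −1.82 (−1.05 without TMM, where 3 were lower). SLC7A5 and SLC3A2, partners in the large neutral amino acid exchanger, were at 5.50 ± 3.28 and 22.01 ± 20.0 CPM in Cre against 72.5 ± 35.8 and 263 ± 138 CPM in Flpo. SLC38A2, a glutamine and alanine transporter, fell by 2.75 (edgeR adjusted p 0.0190).
Among 13 genes for aminoacyl-tRNA synthetases and the tRNA exporter XPOT, 2 (15.4%) were lower in Cre, near the 14.3% of all genes, and none higher, with a median of −0.94 (−0.17 without TMM, where none passed). MARS, for methionine, fell by 2.76 and IARS, for isoleucine, by 1.68 (adjusted p 0.0268 and 0.0359 in edgeR).

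Targets in signalling and cell death gave 5 lower and 1 higher of 20 tested of 24 listed, or 30% called against 20.5% of all genes, with a median of −0.37 (0.42 without TMM, where 4 were lower and 4 higher). PMAIP1, the BH3-only death protein NOXA, was at 6.80 ± 1.44 CPM in Cre, 28.1 ± 20.7 in Cas9 and 136 ± 91.0 in Flpo, and fell by 4.33 between Cre and Flpo (edgeR adjusted p 0.0167). RAB32 and MAP1LC3B, a small GTPase and an autophagosome protein, differed by −3.39 and −3.26 (adjusted p 0.0207 and 0.0259 in edgeR). KLHL24, a ubiquitin ligase adaptor, was higher in Cre by 1.61 (edgeR adjusted p 0.0401).
Targets of ATF6 and XBP1 serve the unfolded protein response outside the ATF4 branch. Of 15 listed, 13 were tested and 5 (38.5%) were lower in Cre, against 14.3% of all genes, with a median of −1.79 (−0.97 without TMM, where 2 were lower). HSPA5, the chaperone BiP, was at 73.0 ± 43.5 CPM in Cre, 69.2 ± 39.8 in Cas9 and 503 ± 341 in Flpo. PDIA6, DNAJC3 and HSPA5 fell by 3.41, 3.21 and 2.83 (adjusted p 0.0185, 0.0167 and 0.0250 in edgeR).
Between Cre and Flpo, 0 of all 13691, 13796 and 12431 genes passed when Cre replicate 2, Cre replicate 3 or Flpo replicate 1 was left out. The 0 calls in all 9 lists there follow from that and say nothing particular about the lists. At an unadjusted p under 0.05 in edgeR, 4721, 3359 and 3233 of all genes remained in those fits. Without Flpo replicate 3, 405 of all 12352 genes were called. Calls were then left in 4 lists, with 3 for eIF2 and phosphatase parts, 1 for transporters, 2 for signalling targets and 1 for ATF6 and XBP1 targets. Without Cas9 replicate 2, 1386 of all 13829 genes were called. The members and the kinases then had 0 calls, synthesis genes and synthetases 1 each, and the eIF2, transporter, signalling and ATF6 lists 3 each. With Flpo replicate 2 left out, calls rose to 7 of 13 synthetases, 9 of 13 ATF6 and XBP1 targets, 10 of 21 signalling targets and 6 of 10 synthesis genes, in a fit that called 5559 of all 12595 genes. With the library total as a covariate no listed gene passed, and 0 of all 11905 genes did. As reported, no listed gene passed between Cre and Cas9 or between Flpo and Cas9 in edgeR, but without Flpo replicate 2 the latter had 1 call among the 8 members and 7 among 13 ATF6 and XBP1 targets, where 2685 of 12595 genes were called.

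**Figure D5:**
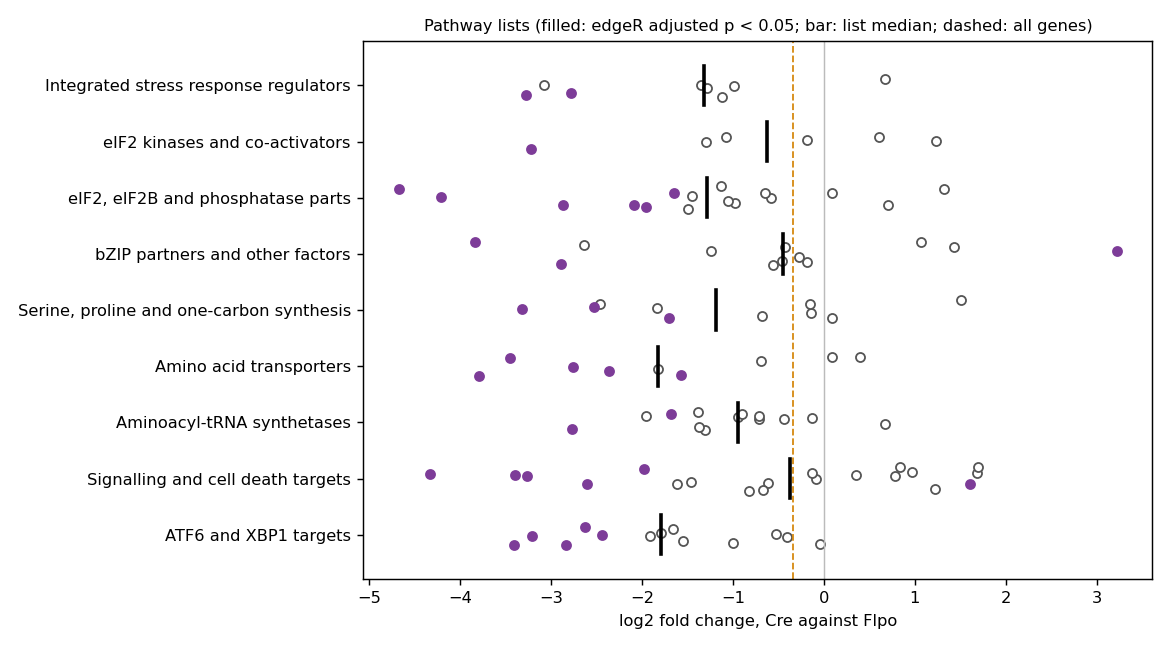
Log2 fold change between Cre and Flpo of every tested gene in the 9 lists, with filled points past an edgeR adjusted p of 0.05, a black bar at each list's median and a dashed line at the median of all genes (−0.34). Called genes lie to the left of 0 except JDP2 at 3.22 and KLHL24 at 1.61.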

How the data were processed

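Per the labels' protocols, TRIzol was used for the RNA of the 9 samples and an Illumina TruSeq kit for sequencing libraries. The authors deposited estimated counts, 1 column per library and 1 row per symbol. Salmon 0.14.1 and the build hg38 are named in the submitters' processing notes, while the annotation, strand setting and filters are not given in the sources used here. Non-whole numbers made up 48.7% to 60.8% of the nonzero values in each column (tolerance 1e-06), so the deposited estimated counts were rounded. edgeR 4.0.16 (R 4.3.3) fitted all 9 libraries together with TMM, its default filter (minimum count 10, minimum total 15), its quasi-likelihood test and Benjamini-Hochberg adjustment over 11905 genes, with a threshold of 0.05. Standard errors are the absolute log2 fold change over the square root of F. DESeq2 1.42.0 was an alternative. The code was tested on simulated data. Gene models are from GENCODE 29. Floors of 3 counts cover counting error only. All 10 members are named, and of each list up to 3 called genes per direction, those with the largest log2 fold change. Members and lists were chosen with earlier results of these data known.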

Additional observations from a re-analysis of the deposited data

How the results depend on the processing

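Between Cre and Cas9, where 0 genes passed as reported (879 at an unadjusted p under 0.05), DESeq2 gave 4 and no filter on low counts gave 51, and every fit without 1 library gave 0. Between Flpo and Cas9 the 27 genes became 1065 in DESeq2, 12 without TMM, 1169 without a filter, 157 with at least 10 counts in 3 libraries, 42 after thinning, and 0 with the library total as a covariate or with only the groups compared (1791 and 2807 at an unadjusted p under 0.05). Without 1 library it ranged from 0 (without Cas9 replicate 1 or 2, Cre replicate 2, or Flpo replicate 1 or 3) to 2685 (without Flpo replicate 2). Between Cre and Flpo the 2440 genes became 3976 in DESeq2, 1105 after thinning and 0 with the covariate (732 unadjusted), and from 0 (without Cre replicate 2 or 3, or Flpo replicate 1) to 5559 (without Flpo replicate 2) without 1 library, with 405 without Flpo replicate 3 and 1386 without Cas9 replicate 2. With the replicate block the counts were 0, 6 and 1568 for the 3 comparisons, and the pairing is by number alone: same-numbered libraries correlated from −0.549 to 0.527 in their deviations, and 0, 1 and 3 of 6 libraries correlated best with their own number. The block changed no member's call.

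Of 413 member values under the alternatives, 26 changed sign, none with an adjusted p under 0.05. With the library total as a covariate, values between Cre and Flpo turned for ASNS (−0.69), ATF3 (0.41), DDIT3 (1.42), DDIT4 (0.47), PPP1R15A (0.44), SESN2 (0.33) and TRIB3 (0.74). Those between Flpo and Cas9 turned for ATF3 (−0.76), ATF4 (−1.005), DDIT3 (−1.36), DDIT4 (−1.37), SESN2 (−0.53) and TRIB3 (−0.029). Those between Cre and Cas9 turned for DDIT3 (0.054), PPP1R15A (0.81) and TRIB3 (0.71). Without TMM the signs of ASNS (−0.36), ATF3 (−0.21) and DDIT3 (−0.14) between Flpo and Cas9 turned, as did TRIB3 (0.22) between Cre and Cas9, which was also 0.074 with the replicate block. Fits without 1 library ranged from −0.048 to 0.44 for ASNS between Flpo and Cas9, and between Cre and Cas9 from −0.91 to 0.23 for PPP1R15A and −0.59 to 0.28 for TRIB3. The causes were not tested. Depth limits CHAC1 and CEBPB, which were tested under 2 looser filters (CEBPB also with only Flpo and Cas9 in the fit), and every member in Cre replicate 2, whose highest count among them was 14.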

Other observations

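Ratios of counts within a library need no scaling between libraries, but they move with the denominator too. ASNS counts ran only from 14 to 42 over the Cas9 and Cre libraries. ATF4 counts over ASNS counts were 11.9, 12.2 and 6.93 in Flpo replicates 1, 2 and 3, and 2.0, 0.214 and 0.161 in the Cre replicates. In the Cas9 replicates the ratio was 1.09, 5.46 and 21.9, so the Cas9 group spanned from within the Cre range to above the Flpo range. DDIT4 counts over ASNS counts were 7.04, 6.69 and 8.25 in Flpo, 1.88, 0.143 and 0.0323 in Cre and 0.217, 4.54 and 10.97 in Cas9. Both ratios rest on 1 to 5 counts of the first gene in Cre replicates 2 and 3. Over ASNS, PPP1R15A and DDIT3 were also lower in every Cre library than in any Flpo library. For DDIT3 this was narrow, at 1.17 in Cre replicate 1 and 1.24 in Flpo replicate 3, and its CPM overlapped between these groups. The ASNS mean was higher with Cre (33.1 CPM) than with Flpo (19.6), which by itself lowers ratios over ASNS in Cre. How many of all genes separate when divided by ASNS was not counted. Over ATF4, PPP1R15A and DDIT3 were not lower in every Cre library. PPP1R15A counts over ATF4 counts were 0.269, 0.184 and 0.931 in Flpo and 0.310, 0.333 and 4.0 in Cre. DDIT3 counts over ATF4 counts were 0.134, 0.105 and 0.179 in Flpo and 0.583, 0 and 2.6 in Cre.

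JUN, a bZIP factor that can pair with members of the ATF family, had its highest mean with Cas9 alone and its lowest with Flpo. Its mean level was 305 ± 38.5 CPM with Cas9 alone, 112 ± 109.6 with Cre and 42.5 ± 7.49 with Flpo (SD, n = 3 per mean). Its difference between Flpo and Cas9 was −2.84 (standard error 0.65, edgeR adjusted p 0.0690), and it was named after its values were seen. ATF4P1, a processed pseudogene that can share reads with ATF4, had 30, 9 and 13 counts in the Flpo libraries and at most 1 in any other. Over all libraries its counts came to 1.26% of those of ATF4, but the share was not even. In Cre replicate 2 the pseudogene ATF4P4 had 3 counts beside 3 of ATF4. In Cre replicate 3 ATF4P3 had 2 and ATF4P1 had 1 beside 5 of ATF4. The most counts were 7.9 for ATF4P4, in Flpo replicate 2, and 5.2 for ATF4P3, in Cas9 replicate 3. The part of shared reads in the ATF4 counts was not tested.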
